A study of Mus musculus with 12 samples.

Results

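The 32 genes described here encode collagens, other proteins of the extracellular matrix, and the enzymes, inhibitors and growth factors that remodel it. They were chosen by gene name and not by a cut on their signals, though earlier results of these data were known. The arrays held 41174 probes that name 27666 genes, and 57 probes carried the 32 genes. By role they were 5 fibrillar collagens, 3 basement membrane collagens, 3 chains of collagen VI, 4 genes of elastic fibres and cross-linking, 5 proteoglycans and adhesive glycoproteins, 3 matricellular proteins, 6 proteases and protease inhibitors, and 3 ligands of the transforming growth factor beta (TGF beta) family. Total RNA came from hearts and kidneys of mice without mENT1 (gene Slc29a1), the equilibrative transporter that carries adenosine and other nucleosides across the cell membrane, and of wild type mice. The groups were knockout (KO) heart, wild type (WT) heart, KO kidney and WT kidney, with 3 arrays each, lettered a to c, from 3 KO and 3 WT mice per the design text. All mice, KO and WT, were on the FVB/N background. The allele, age and sex of the mice were not given in the sources used here.

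The extracellular matrix holds tissues together. Fibrillar collagens, made mainly by fibroblasts, bundle into the cables that give the heart wall its tensile strength, while sheets of basement membrane built on collagen IV lie under endothelium, around cardiac myocytes and along kidney tubules and glomeruli. Lysyl oxidases cross-link collagen and elastin, matrix metalloproteinases cut matrix proteins, and tissue inhibitors of metalloproteinases (TIMPs) hold those enzymes in check. TGF beta is the growth factor best known for raising matrix production, in scar tissue of the heart and of the kidney alike.

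The main pattern in these genes was a difference between tissues, and 3 promoters are shown for members that carry it. Col1a2, a chain of type I collagen, and Postn, the matricellular protein periostin, had higher signals in heart, and Timp3, an inhibitor bound to the matrix, had a higher signal in kidney. Each sequence is the last 120 bases before a transcription start in RefSeq on build GRCm38.p6, written 5′ to 3′ on the plus strand, with a motif match in capitals. For Col1a2 (chr6:4505498-4505617) the capitals mark CCAAT, which begins 109 bases before the start. For the second of the Postn starts in RefSeq (chr3:54360987-54361106) they mark TATAAA, 26 bases before the start. The 120 bases before the first Postn start (chr3:54359147-54359266) held no match and are not shown. For Timp3 (chr10:86300292-86300411) the capitals mark the reverse strand match to the GC box GGGCGG, 15 bases before the start.
Col1a2: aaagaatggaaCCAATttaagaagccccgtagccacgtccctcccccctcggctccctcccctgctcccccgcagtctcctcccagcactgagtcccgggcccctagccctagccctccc
Postn: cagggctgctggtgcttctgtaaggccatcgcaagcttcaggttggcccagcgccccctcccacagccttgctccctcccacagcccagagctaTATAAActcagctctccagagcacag
Timp3: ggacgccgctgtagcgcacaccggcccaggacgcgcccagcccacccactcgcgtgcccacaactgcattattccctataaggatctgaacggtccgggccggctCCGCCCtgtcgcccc
RefSeq windows of 300 bases, 250 before to 50 after a start, were matched for 20 of the 32 members (23 windows). Both strands were searched and the motifs could overlap. TATAAA lay in 5 of the 23 windows and in 13.62% of all 32851 windows, CCAAT in 8 and in 37.41%, GGGCGG in 15 and in 35.66%, and the AP-1 site TGANTCA in 1 and in 7.808%. These matches describe letters in the windows and no binding was measured.

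Some facts of the whole series touch every result below. Values are log2 signals minus the 75th percentile of each array, which lay at an intensity of 451 to 878, and 60.0% to 70.0% of probes per array were well above background. Slc29a1 read 1.38, 0.59 and 1.53 in KO hearts, against 3.15, 3.23 and 3.36 in WT hearts, and -1.43, -1.30 and -1.43 in KO kidneys, against 1.51, 1.27 and 1.62 in WT kidneys. The deposited table of processed values gives the opposite genotype labels: each of its 12 columns followed a scanner file whose letter and tissue match and whose genotype does not. The scanner labels were kept because Slc29a1 was low in their KO arrays, and all genotype directions below would turn round under the labels of the table. Xist, which is made from an inactivated X chromosome, read 1.70 and 1.69 on KO hearts a and b and 1.21 on KO kidney a, and at most -7.97 on the other 9 arrays, which carried signal of the Y chromosome. KO heart b and KO kidney b thus differ in Xist signal, so their shared letter cannot mark a single animal. More KO hearts than KO kidneys had Xist signal, so under these labels the same 3 KO mice cannot have given both tissues. The 3 KO hearts lay on slide 3 with WT kidney c and the 3 WT hearts on slide 4, so for hearts genotype and slide cannot be told apart. No slide held hearts and kidneys of the same genotype, so no tissue difference within a genotype could be taken within a slide. KO kidney a lay alone on slide 1, and slide 2 held KO kidneys b and c with WT kidneys a and b.

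The labelled tissues matched their defining markers. The median of 8 cardiomyocyte markers lay between 6.25 and 6.96 in hearts and between -5.22 and -4.48 in kidneys, where Myh6 and Ryr2 were not well above background on any array. The median of 8 kidney epithelium markers lay between 5.93 and 6.44 in kidneys and between -8.72 and -7.13 in hearts, where Slc12a1, Slc12a3 and Nphs1 were not well above background on any array. All 32 matrix genes passed the filter in each comparison. Their probes were well above background on every heart and every WT kidney, and for 31 genes on every KO kidney. The exception was Col5a2, which was well above background on 2 of 3 KO kidneys.

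Heart RNA carried more signal of nearly every matrix gene than kidney RNA. Among KO mice 30 of the 32 genes were higher in heart and 1 was lower, and among WT mice 30 were higher and 2 were lower, at an adjusted p under 0.05 in limma. Of all genes tested, 29.4% were called higher and 24.2% lower between KO tissues, and 34.1% higher and 30.3% lower between WT tissues. Scaling each array to its median turned the split of all genes between KO tissues to 3962 higher and 5574 lower, against 5332 and 4388 here. The median difference of heart minus kidney over the 32 genes was 3.03 log2 units in KO mice, where all genes had 0.11, and 2.76 in WT mice, where all genes had 0.07. The largest call in both genotypes was Lum, lumican, a small proteoglycan that spaces collagen fibrils: heart was 35.9-fold higher in KO mice and 36.4-fold higher in WT mice. With slide as a random block 30 of the 31 KO calls and all 32 WT calls remained. No slide held both tissues of a genotype, so this fit cannot separate slide from tissue. In bulk RNA, more cells of a type and more RNA per cell cannot be told apart.

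**Figure D1:**
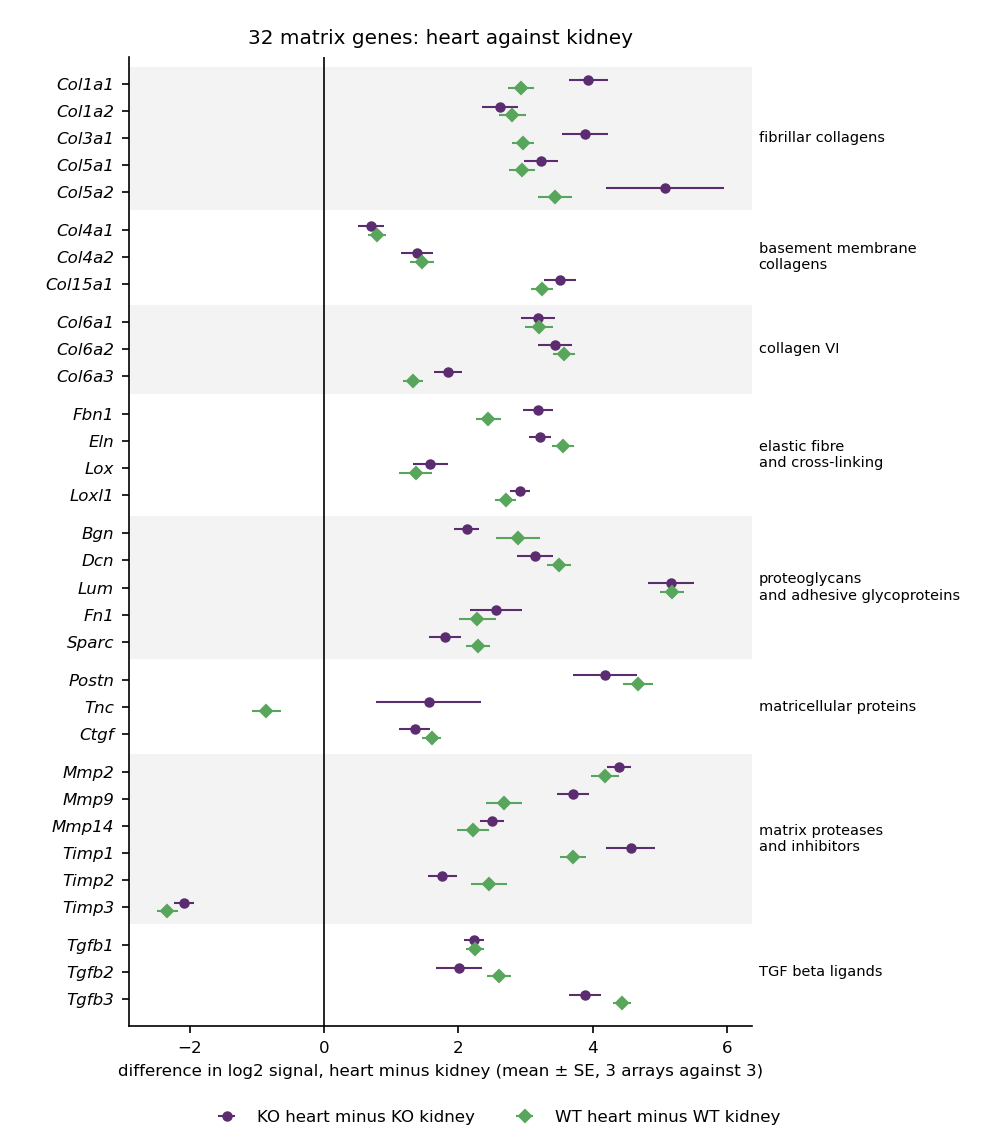
Difference in log2 signal, heart minus kidney, for the 32 matrix genes, by role, as the limma estimate ± SE, 3 arrays a group. Circles are KO mice and diamonds are WT mice. Points right of 0 are higher in heart. Timp3 lies left of 0 in both genotypes (-2.08 in KO and -2.33 in WT), and Tnc lies at 1.56 in KO and at -0.86 in WT mice.

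Fibrillar collagens were higher in heart without exception. Col1a1 (probe at chr11:95060800-95060859 on build mm7), the major chain of type I collagen, read 3.37, 2.95 and 3.86 in KO hearts, 3.79, 3.84 and 3.45 in WT hearts, -0.20, -0.64 and -0.79 in KO kidneys, and 0.60, 0.59 and 1.08 in WT kidneys. Every heart lay above every kidney, and the 3 KO kidneys were the lowest arrays of all. The difference of heart minus kidney was 3.94 ± 0.29 (SE, adjusted p = 0.000106) in KO mice and 2.94 ± 0.19 (SE, adjusted p = 9.91e-06) in WT mice. Col1a2 (chr6:4493505-4493564), whose promoter is shown above, was higher in heart by 2.62 in KO and by 2.81 in WT mice. Col3a1 (chr1:45585395-45585454), the chain of type III collagen found in compliant tissues, was higher by 3.88 in KO and by 2.97 in WT mice. Col5a1 and Col5a2, chains of the type V collagen that starts fibril assembly, were higher by 3.23 and 5.08 in KO mice and by 2.95 and 3.44 in WT mice. The value of Col5a2 in KO mice has an SE of 0.88, because KO kidney a read -7.10 and was not well above background there, while KO kidneys b and c read -3.83 and -3.95.

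The basement membrane group held the smallest difference of any collagen. Col4a1 (chr8:11167857-11169691), a chain of the collagen IV found in most basement membranes, read 2.61, 2.29 and 2.73 in KO hearts, 2.76, 2.94 and 2.93 in WT hearts, 2.03, 1.77 and 1.72 in KO kidneys, and 2.21, 1.99 and 2.06 in WT kidneys. Hearts and kidneys did not overlap within a genotype, yet heart was only 1.63-fold higher in KO mice (adjusted p = 0.022) and 1.73-fold higher in WT mice (adjusted p = 0.00166). The KO call for Col4a1 did not hold under 8 of the alternatives listed in the closing section. Its partner chain Col4a2 was 2.75-fold higher in heart in WT mice, with differences of 1.39 ± 0.24 in KO and 1.46 ± 0.18 in WT mice (SE). Col15a1, a collagen of the outer face of the basement membrane, differed by far more, at 3.51 ± 0.24 in KO and 3.25 ± 0.16 in WT mice (SE).

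Collagen VI forms beaded filaments near cells. Its chains were higher in heart by 3.19 (Col6a1), 3.44 (Col6a2) and 1.85 (Col6a3) in KO mice, and by 3.21, 3.57 and 1.32 in WT mice. Among genes of elastic fibres and cross-linking, Eln, the core protein elastin, read -0.14, 0.13 and 0.13 in KO hearts, 0.23, 0.01 and 0.23 in WT hearts, -3.28, -3.08 and -3.19 in KO kidneys, and -3.35, -3.63 and -3.23 in WT kidneys. These 12 values formed an upper heart band and a lower kidney band, with heart 11.8-fold higher in WT mice. Fbn1, the microfibril protein fibrillin-1, was higher in heart by 3.19 in KO and by 2.45 in WT mice. Of the cross-linking enzymes, Loxl1 was higher by 2.92 in KO and by 2.71 in WT mice, and Lox by 1.59 and 1.37.

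Among proteoglycans and adhesive glycoproteins, Lum (chr10:97135063-97135122) led. It read 4.24, 4.63 and 4.68 in KO hearts, 4.87, 4.95 and 4.63 in WT hearts, 0.05, -0.78 and -1.21 in KO kidneys, and -0.60, -0.11 and -0.39 in WT kidneys. Dcn, decorin, which binds collagen fibrils and TGF beta, was higher in heart by 3.14 in KO and by 3.50 in WT mice. Its probe was saturated on 2 of 3 KO hearts and on 2 of 3 WT hearts, which limits the measured height of the heart signal. Bgn, the related biglycan, was higher by 2.12 in KO and by 2.89 in WT mice. Fn1, the adhesive glycoprotein fibronectin, was higher by 2.56 and 2.29, and Sparc, a collagen-binding glycoprotein, by 1.81 and 2.30, KO mice given first.

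Matricellular proteins, which modulate cells without being structural, went apart. Postn (chr3:54519770-54519829) read 2.68, 2.82 and 3.57 in KO hearts, 3.71, 4.07 and 3.49 in WT hearts, -0.17, -1.62 and -1.70 in KO kidneys, and -1.16, -1.04 and -0.57 in WT kidneys. Heart was 18.2-fold higher in KO mice and 25.6-fold higher in WT mice. Ctgf, connective tissue growth factor, was higher in heart by 1.36 in KO and by 1.60 in WT mice. Tnc (chr4:63394034-63394094), tenascin-C, which is usually low in adult tissue, read -0.83, -0.55 and -3.41 in KO hearts, -4.16, -3.72 and -4.13 in WT hearts, -2.62, -3.71 and -3.14 in KO kidneys, and -3.15, -3.47 and -2.82 in WT kidneys. WT hearts lay below all WT kidneys, and heart was 1.81-fold lower in WT mice (adjusted p = 0.00953). In KO mice hearts and kidneys overlapped, because KO heart c fell among the KO kidneys, and the difference of 1.56 ± 0.78 (SE) was not called (adjusted p = 0.14).

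Proteases and their inhibitors were higher in heart with the exception of Timp3. Mmp2, gelatinase A, was 21.0-fold higher in KO hearts and 18.2-fold higher in WT hearts than in the kidneys of the same genotype. Mmp9, gelatinase B, was 13.1-fold and 6.41-fold higher, and Mmp14, the membrane protease that activates pro-MMP2, had differences of 2.50 and 2.22 log2 units, KO mice given first. Timp1 was 23.7-fold higher in KO hearts and 13.1-fold higher in WT hearts, and Timp2 had differences of 1.76 and 2.46. Timp3 (chr10:85907162-85907221) read 4.03, 4.16 and 4.08 in KO hearts, 4.22, 4.12 and 4.13 in WT hearts, 6.26, 6.08 and 6.18 in KO kidneys, and 6.34, 6.74 and 6.38 in WT kidneys. It was the only member lower in heart in both genotypes, by 4.23-fold in KO mice (adjusted p = 0.0001) and by 5.02-fold in WT mice (adjusted p = 9.85e-06).

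All 3 TGF beta ligands were higher in heart. Tgfb3 had the smallest adjusted p of the 32 genes in WT mice (2.41e-07) and read 3.22, 3.34 and 3.83 in KO hearts, 3.84, 3.94 and 3.87 in WT hearts, -0.19, -0.40 and -0.68 in KO kidneys, and -0.64, -0.62 and -0.40 in WT kidneys. Heart was 14.8-fold higher in KO mice and 21.7-fold higher in WT mice. Tgfb1 was higher in heart by 2.23 in KO and by 2.25 in WT mice, and Tgfb2 by 2.01 and 2.61.

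The KO and WT contrasts share no array and can be set side by side. Of the 32 genes 31 had the same direction in both, and 20 had differences within 0.5 log2 units of each other. Pearson's r of the differences across the 32 genes was 0.888, given as a description, since the genes share their libraries. Groups did not overlap for 30 genes higher and 1 lower in KO heart against KO kidney, where 35.2% and 29.6% of all genes separated in those directions, and for 30 higher and 2 lower in WT mice, where 37.4% and 34.1% did. All 16 other probes of members that were tested had the direction of the main probe, in KO and in WT mice, the smallest difference being 0.12 ± 0.59 (SE) for a second Col5a1 probe in KO mice. Marker lists of fibroblasts, endothelium and macrophages moved in the same direction, but not every list did. All 8 fibroblast markers were called higher in heart in both genotypes, with medians of 2.98 in KO and 3.16 in WT mice, as were all 8 endothelium markers, with 1.74 and 2.13. Macrophage markers were called higher in heart for 7 of 8 in KO mice and 8 of 8 in WT mice. Of all genes tested, 29.4% in KO and 34.1% in WT mice were called higher. The smooth muscle and pericyte marker Cspg4 averaged lower in heart, at 1.11 against 1.58 in KO and 1.43 against 1.56 in WT mice. The rest of its list averaged higher in heart in both genotypes. Adipocyte and hepatocyte markers were mixed in WT mice. Adipoq averaged 2.58 in WT hearts and 3.78 in WT kidneys, and Fgb -4.04 and 0.07. In the other direction, Fabp4 averaged 6.82 and 6.74, and Apoa2 -3.67 and -5.20. The summed relative level of the fibroblast markers, as linear signal in units of the 75th percentile, was 62.6 to 106 in KO hearts, 51.3 to 67.3 in WT hearts, 5.76 to 6.46 in KO kidneys and 5.83 to 7.24 in WT kidneys. Thy1, which T cells also carry, averaged 4.67 in KO hearts and 2.94 in WT hearts on the log2 scale, while the other 7 fibroblast markers were lower in KO hearts. The part of cell numbers in the tissue difference was not tested.

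Positions on the chromosomes group some members. In RefSeq on build GRCm38.p6, 4 pairs of members are next to each other among protein-coding genes. They are Col3a1 and Col5a2 on chromosome 1, Col4a1 and Col4a2 on chromosome 8, Col6a1 and Col6a2 on chromosome 10, and Dcn and Lum on chromosome 10. In mammals Col4a1 and Col4a2 are transcribed away from a shared promoter region. Members of a pair were higher in heart in both genotypes, as was every member outside the pairs except Timp3 and Tnc.

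Whether the loss of mENT1 altered matrix genes in heart was asked with KO hearts against WT hearts. No member passed an adjusted p under 0.05. Of all genes tested, 0.578% were called higher and 0.0916% lower. The differences leaned to lower values: 28 of 32 genes were lower and 4 higher in KO hearts, with a median of -0.27 where all genes had -0.07. The lean came from KO hearts a and b. KO heart a lay below all 3 WT hearts for 27 genes and KO heart b for 24, but KO heart c for 8, and the median differences of these arrays from the WT mean were -0.37, -0.46 and -0.04.

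**Figure D2:**
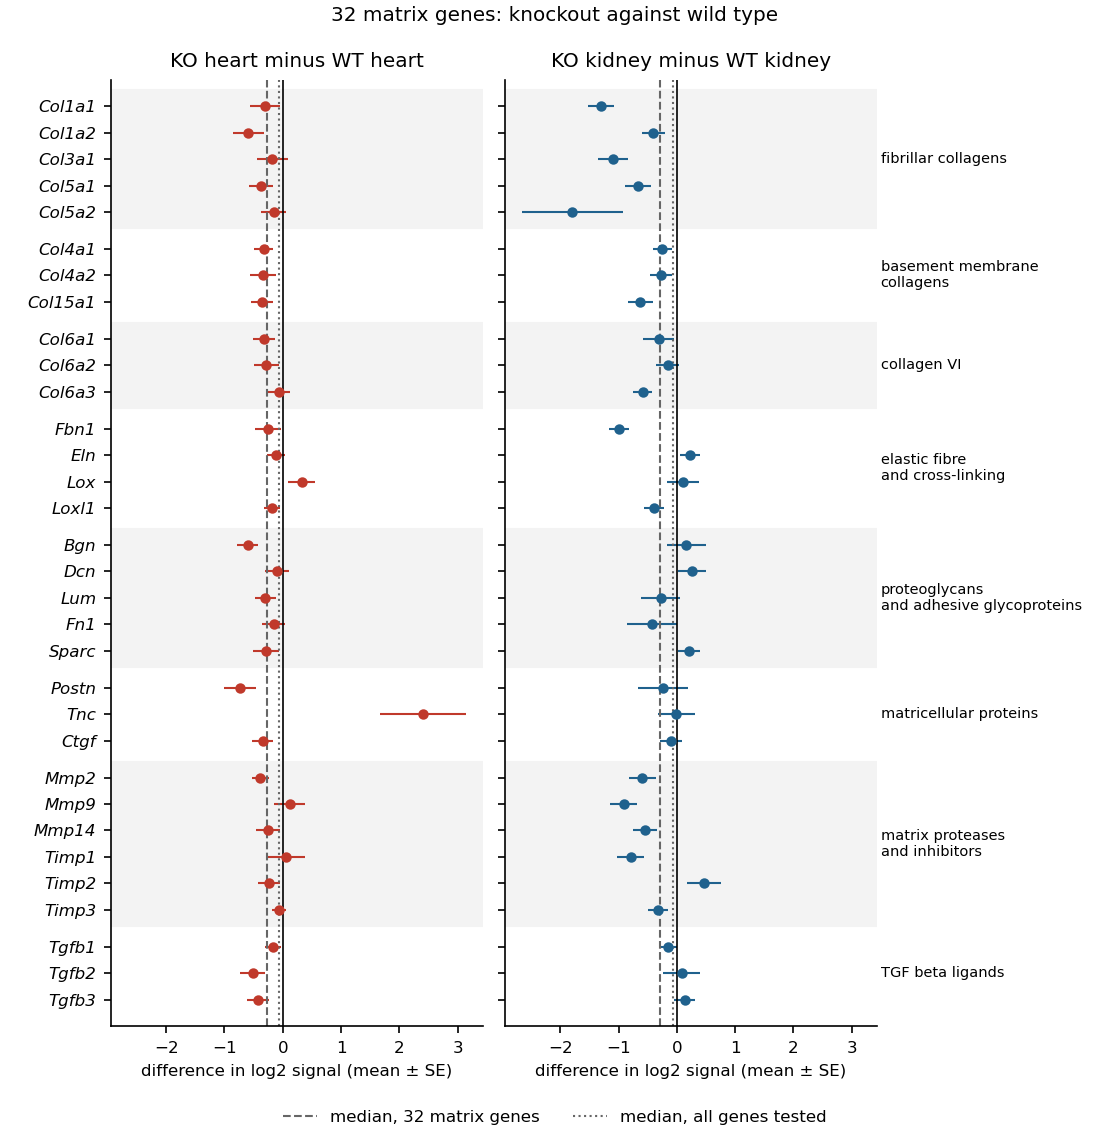
Difference in log2 signal, KO minus WT, for the 32 matrix genes in heart (left) and kidney (right), as the limma estimate ± SE, 3 arrays a group. Dashed lines mark the median of the 32 genes (-0.27 in heart and -0.30 in kidney) and dotted lines that of all genes tested (-0.07 in both). No point passed the adjusted threshold, and Tnc in heart (2.41) and Col5a2 in kidney (-1.79) lie farthest from 0.

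Single genes in heart fell short of the threshold across all roles. The 5 fibrillar collagens had differences from -0.59 (Col1a2) to -0.16 (Col5a2), with adjusted p from 0.328 to 0.717. The 3 basement membrane collagens lay between -0.36 (Col15a1) and -0.33 (Col4a1), and the chains of collagen VI between -0.33 (Col6a1) and -0.06 (Col6a3). In the elastic fibre group Fbn1, Eln and Loxl1 had -0.25, -0.12 and -0.18, and Lox had 0.32. Among proteoglycans and glycoproteins Lum had -0.30, Fn1 -0.16 and Sparc -0.29. Dcn had a measured -0.10, which its saturation on 2 of 3 hearts of each genotype makes unreliable, and it is 1 of the 28 lower genes.

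Bgn had the smallest adjusted p of the 32 genes. It read 1.03, 1.39 and 1.44 in KO hearts, against 1.79, 2.11 and 1.78 in WT hearts. The groups did not overlap, and the difference was -0.60 ± 0.17 (SE, adjusted p = 0.238). Postn read 2.68, 2.82 and 3.57 in KO hearts, against 3.71, 4.07 and 3.49 in WT hearts, and here KO heart c lay above WT heart c. Its difference was -0.73 ± 0.28 (SE, adjusted p = 0.303).

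Tnc stood apart in the other direction. Its signal was -0.83 and -0.55 in KO hearts a and b and -3.41 in KO heart c, against -4.16 to -3.72 in WT hearts. All KO hearts were above all WT hearts, but KO heart c lay close to WT heart b. The fitted difference was 2.41 ± 0.74 (SE, adjusted p = 0.251), which is 5.3-fold. Without KO heart c it was 3.31 ± 0.20 (SE, adjusted p = 0.00131), while KO heart c alone lay 0.59 above the WT mean, a single array with no spread of its own. KO heart c is named here after its value was seen.

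No remodelling gene passed with all arrays. Mmp2 read 1.87, 2.02 and 2.16 in KO hearts, against 2.44, 2.51 and 2.27 in WT hearts, with a difference of -0.39 ± 0.14 (SE, adjusted p = 0.298). Mmp14 and Mmp9 had -0.26 and 0.12, and Timp1, Timp2 and Timp3 had 0.06, -0.23 and -0.07. The ligands Tgfb1, Tgfb2 and Tgfb3 had -0.16, -0.52 and -0.43, and Ctgf had -0.35, with adjusted p from 0.312 to 0.533. Without KO heart c, Tgfb2 (-0.73 ± 0.13, SE, adjusted p = 0.0258) and Tgfb3 (-0.61 ± 0.13, SE, adjusted p = 0.0414) passed, as did Col1a2 (-0.84 ± 0.19, SE, adjusted p = 0.0488) and Postn (-1.01 ± 0.21, SE, adjusted p = 0.0385). Groups did not overlap for 1 gene that was higher (Tnc) and 6 that were lower (Bgn, Mmp2, Tgfb2, Tgfb3, Ctgf and Col4a1), where 9.17% and 13% of all genes separated in those directions. Of 16 further probes of members tested in heart, 14 had the direction of the main probe, the exceptions belonging to Fbn1 and Timp1.

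**Figure D3:**
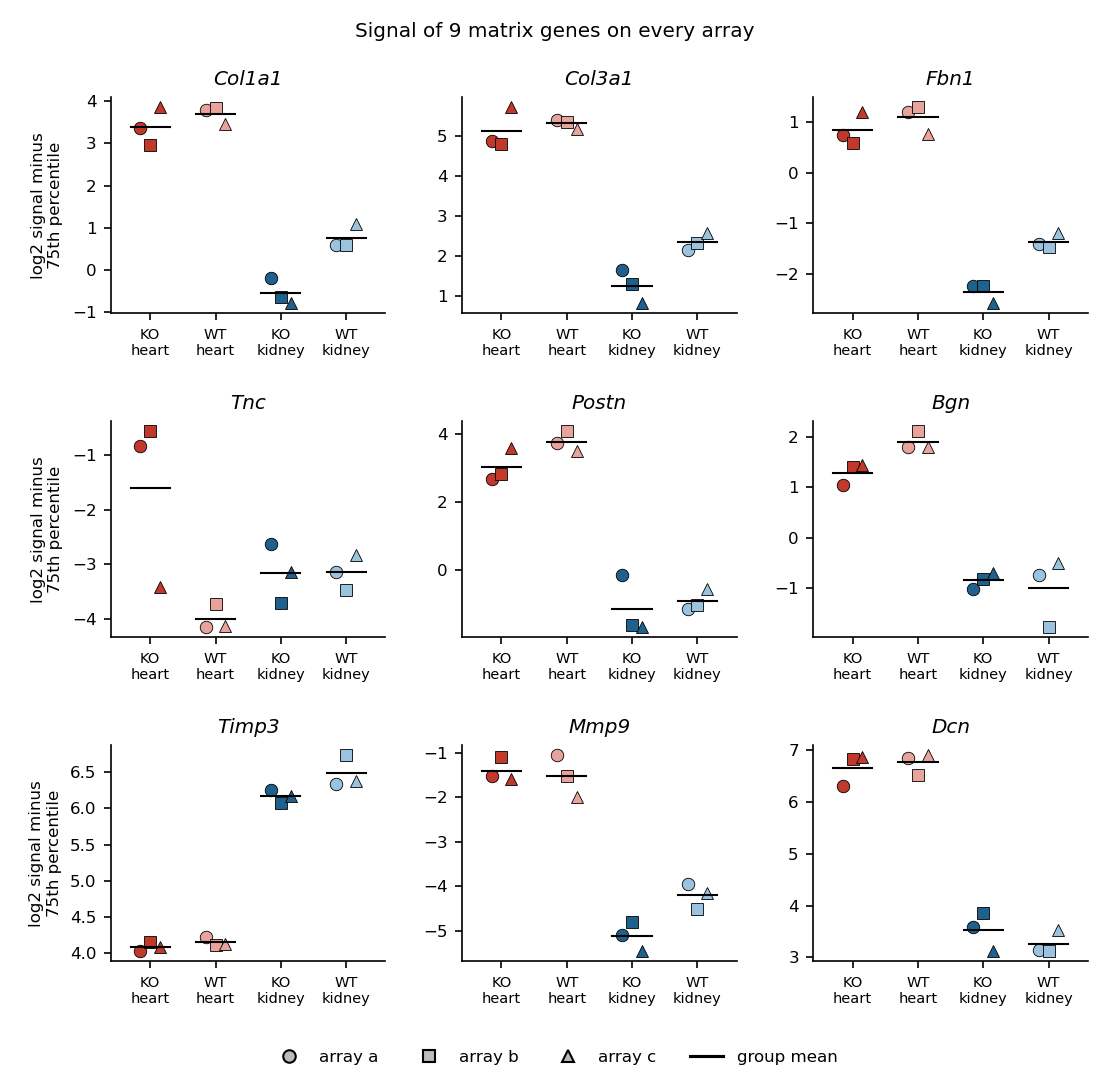
Log2 signal minus the 75th percentile of the array for 9 matrix genes on each of the 12 arrays, in KO heart, WT heart, KO kidney and WT kidney. Symbols mark letters a, b and c, and lines are group means. Scales differ between genes. KO hearts a and b lie high for Tnc (-0.83 and -0.55), and the 3 KO kidneys lie below the 3 WT kidneys for Col1a1, Col3a1, Fbn1 and Mmp9.

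Marker genes of other tissues also differed between hearts, and of the 5 lists given next the T cell and cell cycle lists had their highest sums on KO hearts a and b. The 6 T cell and thymocyte markers tested were all higher in KO hearts (median 3.94, none called), and their summed relative level was 103, 216 and 1.18 on KO hearts a, b and c, against 0.709 to 1.38 in WT hearts. Rag1 and Ptcra of that list were not well above background on any WT heart. Lung epithelium markers summed to 206 on KO heart a, 0.247 on b and 0.201 on c, against 0.0778 to 1.45 in WT hearts, where Sftpb and Ager were not well above background. All 7 hepatocyte markers tested were called higher in KO hearts (median 4.05), with sums of 3.79, 4.55 and 6.47 on KO hearts a, b and c and of 0.26 to 0.63 in WT hearts. The 8 cell cycle markers were all higher (median 2.25, none called), with sums of 20.2, 40.4 and 4.09 on KO hearts a, b and c and of 2.79 to 3.78 in WT hearts. Of 6 adipocyte markers 5 were higher in KO hearts (median 1.42, none called), with sums of 291, 207 and 287 on KO hearts a, b and c and of 301, 108 and 170 on WT hearts a, b and c. The cells of the heart itself leaned the other way: 7 of 8 fibroblast markers (median -0.34), 8 of 8 endothelium markers (-0.36) and 8 of 8 macrophage markers (-0.39) were lower in KO hearts, none called. The exception among fibroblast markers was Thy1. Endothelium markers summed to 74.2 to 111 in KO and 114 to 116 in WT hearts, and macrophage markers to 91.03 to 122 in KO and 122 to 138 in WT hearts. KO hearts a and b are also the hearts with Xist signal. The part of these markers and of sex in the lean was not tested. KO heart c, the only KO heart without Xist signal, had 13 of the 32 genes above and 19 below the WT mean.

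**Figure D4:**
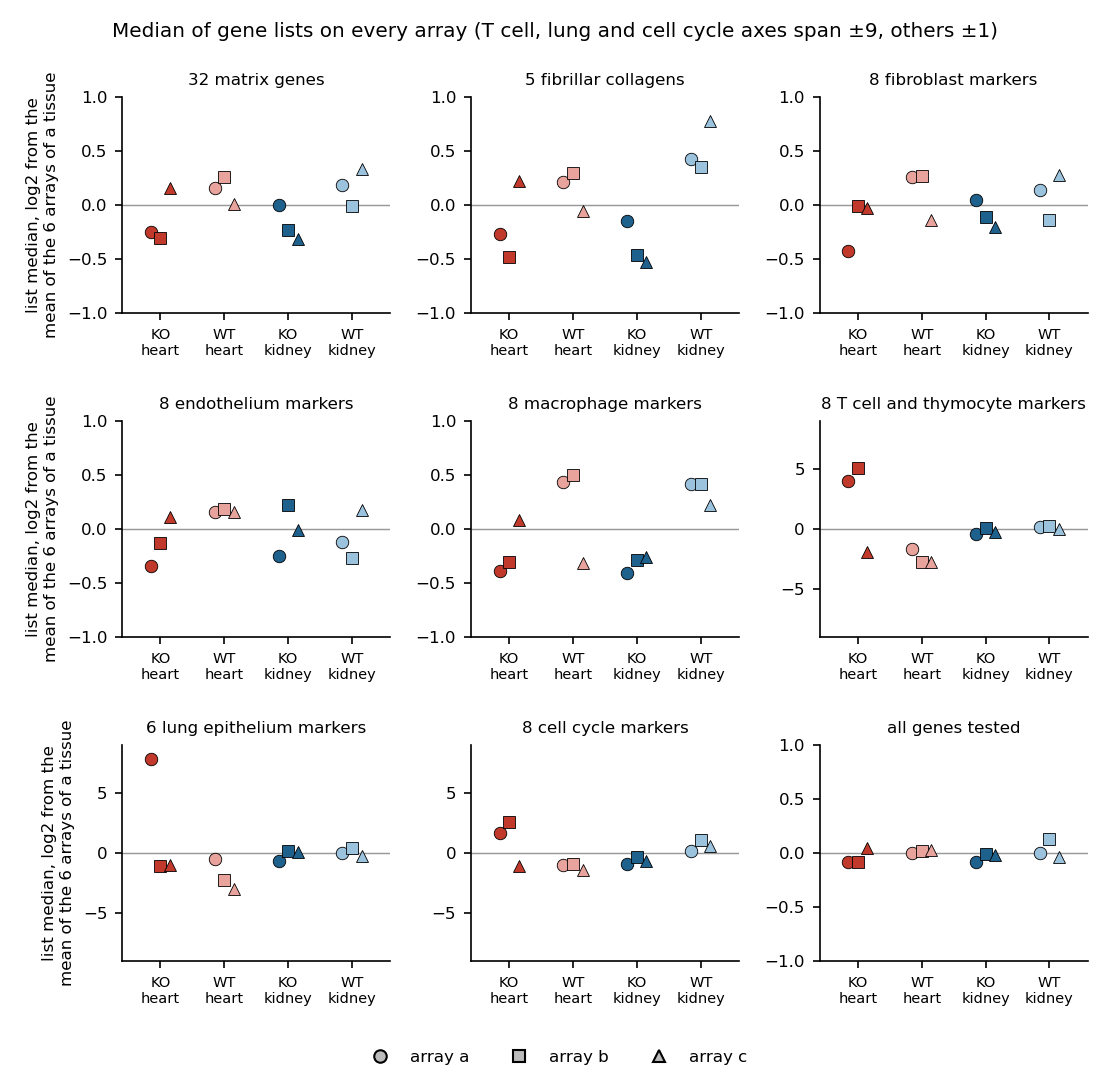
Median of gene lists on each of the 12 arrays, in log2 units, after each gene was centred on the mean of the 6 arrays of its tissue. Symbols mark letters a, b and c. In heart the 32 matrix genes lie at -0.25, -0.30 and 0.16 on KO arrays a, b and c and at 0.01 to 0.26 on WT arrays, while T cell markers lie at 4.02, 5.14 and -1.93 on the KO arrays. In kidney the 5 fibrillar collagens lie at -0.53 to -0.15 on KO arrays and at 0.35 to 0.78 on WT arrays.

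The same question was then asked in kidney. No member passed the adjusted threshold in KO kidneys against WT kidneys, where 0.029% of all genes were called higher and 0.0871% lower. The 32 genes had a median of -0.30, with 24 lower and 8 higher, where all genes had -0.07. Groups did not overlap for 15 genes that were lower and for none that was higher, where 12.7% and 8.8% of all genes separated in those directions. The 15 included all 5 fibrillar collagens and 5 of the 6 proteases and inhibitors.

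Col1a1 and Fbn1 came nearest to a call. Col1a1 read -0.20, -0.64 and -0.79 in KO kidneys, against 0.60, 0.59 and 1.08 in WT kidneys, a 2.46-fold lower signal with a difference of -1.30 ± 0.23 (SE, adjusted p = 0.0951). Within slide 2 alone, which held 2 KO and 2 WT kidneys, its difference was -1.31 ± 0.18 (SE), and there and with slide as a block it passed (adjusted p = 0.043 and 0.0391). The other slides held a single kidney each, so both fits take the genotype difference from the slide 2 kidneys and are not separate results. A second probe of Col1a1 gave a smaller difference of -0.70 ± 0.31 (SE). Fbn1 (chr2:125041844-125041903) read -2.22, -2.24 and -2.58 in KO kidneys, against -1.41, -1.47 and -1.19 in WT kidneys. Its difference was -0.99 ± 0.17 (SE, adjusted p = 0.0951), 1.98-fold lower.

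The other fibrillar collagens were lower in every KO kidney than in any WT kidney. Col3a1 read 1.66, 1.30 and 0.81 in KO kidneys, against 2.14, 2.33 and 2.59 in WT kidneys, with a difference of -1.10 ± 0.25 (SE, adjusted p = 0.144). Col1a2 had -0.41 and Col5a1 -0.66, with adjusted p of 0.449 and 0.281. Col5a2 had -1.79 ± 0.86 (SE, adjusted p = 0.444), where KO kidney a was not well above background, and -0.72 ± 0.29 (SE) without that array. The second probe of Col5a1 had the opposite sign, at 0.35 ± 0.53 (SE).

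Among basement membrane collagens, Col4a1 and Col4a2 had -0.25 and -0.28 with overlapping groups, and Col15a1 had -0.63 ± 0.21 (SE, adjusted p = 0.282) without overlap. Col6a3 read -0.03, -0.26 and -0.34 in KO kidneys, against 0.36, 0.24 and 0.54 in WT kidneys (-0.59 ± 0.17, SE, adjusted p = 0.217). Col6a1 and Col6a2 had -0.31 and -0.16. Loxl1 had -0.39 without overlap between groups, and Eln and Lox had 0.22 and 0.10.

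Remodelling enzymes were lower in KO kidneys, below the threshold. Mmp9 read -5.09, -4.79 and -5.46 in KO kidneys, against -3.94, -4.51 and -4.15 in WT kidneys (-0.92 ± 0.24, SE, adjusted p = 0.187). Mmp2 and Mmp14 had -0.60 and -0.54, and Timp1 and Timp3 had -0.80 and -0.32, all without overlap. For Mmp2 this held only barely, since KO kidney a and WT kidney b both read -2.14. In 1 of 18 alternatives each, Mmp2 and Mmp9 were higher in KO kidneys, by 0.03 and 0.51. Timp2 was the exception at 0.46 ± 0.29 (SE, adjusted p = 0.542). A second Mmp9 probe had -0.69 and 2 further Timp1 probes had -0.43 and -0.94, but a second Mmp14 probe had only -0.04 ± 0.35 (SE).

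Proteoglycans, matricellular proteins and TGF beta ligands showed no shared direction in kidney. Bgn, Dcn and Sparc had 0.16, 0.26 and 0.21, and Lum and Fn1 had -0.28 and -0.43. A second Sparc probe had -0.55, against the sign of the main probe. Postn, Ctgf and Tnc had -0.24, -0.10 and -0.01, and Tgfb1, Tgfb2 and Tgfb3 had -0.15, 0.08 and 0.13. The adjusted p of these 11 genes lay between 0.669 and 0.991. In all, 10 of 12 further probes of members tested in kidney had the direction of the main probe.

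Array KO kidney a, the array with Xist signal and alone on its slide, differed from its group. It lay below all WT kidneys for 15 genes and above them all for 11, while KO kidneys b and c lay below for 24 and 27 and above for 3 and 1. Without it the median of the 32 genes was -0.42, with 26 lower and 6 higher. With the normexp background correction the kidney lean shrank, with 17 lower and 15 higher. The median of the 32 genes was then -0.02, where all genes had 0.08. Of 8 macrophage markers 7 were lower in KO kidneys without overlap (median -0.64, none called), where 12.7% of all genes separated in that direction. Their summed levels were 17.2 to 27.6 in KO and 28.8 to 40.3 in WT kidneys. The 7 cell cycle markers tested were also all lower (median -1.20, none called), summing to 0.647 to 0.88 in KO and 1.3 to 2.42 in WT kidneys. Fibroblast markers had a median of -0.02, with 3 of 8 higher and 5 lower, and sums of 5.76 to 6.46 in KO and 5.83 to 7.24 in WT kidneys. Smooth muscle and pericyte markers summed to 26.5 to 31.5 in KO and 23.9 to 31.5 in WT kidneys. Pdgfrb and Rgs5 of that list had -0.71 and -0.30, and its other genes were higher by at most 0.33 (Smtn), none called. The part of these cell types in the collagen difference was not tested.

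The knockout difference was next compared between tissues, in a fit of all 12 arrays. For no member did the heart difference depart from the kidney difference at an adjusted p under 0.05, where 0.557% of all genes departed upward and 0.0811% downward (103 and 15 genes, against 106 and 33 with median scaling and 93 and 28 with quantile normalization). The members split evenly, 16 higher and 16 lower, with a median of 0.10 where all genes had 0.03. Tnc had 2.41 ± 0.88 (SE, adjusted p = 0.253), Mmp9 1.03 ± 0.38 (adjusted p = 0.259) and Col1a1 1.0 ± 0.36 (adjusted p = 0.25). Col3a1 and Fbn1 followed with 0.92 ± 0.39 and 0.74 ± 0.29 (SE, adjusted p = 0.319 and 0.283). These 5 were the members with an unadjusted p under 0.05. The remaining 27 lay between -0.77 (Bgn) and 1.63 (Col5a2). Without KO heart c, Tnc passed, at 3.32 ± 0.42 (SE, adjusted p = 0.00138). This comparison uses the same arrays as the comparisons within each tissue and adds no independent evidence to them.

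A further list of 147 matrix genes, 145 of them on the array, showed the tissue pattern with more exceptions. Between KO tissues 138 were tested, of which 89 were called higher and 16 lower in heart (median 1.36), and between WT tissues 139 were tested, of which 93 were called higher and 22 lower (median 1.40). Of all genes tested, 29.4% were called higher and 24.2% lower between KO tissues, and 34.1% and 30.3% between WT tissues. Microfibril and elastic fibre genes were the most uniform, with 14 of 15 called higher in heart in each genotype. Mfap5 and Mfap4, microfibril-associated proteins, were higher by 4.79 and 5.03 in KO mice and by 4.60 and 4.72 in WT mice. Genes of collagen processing were called higher for 13 and lower for 2 of 20 in KO mice, and higher for 17 and lower for 1 in WT mice, among them the procollagen peptidase Adamts2 (3.24 in KO and 3.06 in WT) and the chaperone Fkbp10 (2.74 and 2.70). P3h2, a prolyl hydroxylase of basement membrane collagen, was lower in heart, with -3.91 in KO and -3.19 in WT mice.

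Basement membrane genes ran in both directions. Col4a3 and Col4a4, the collagen IV chains of the glomerular basement membrane that are mutated in Alport syndrome, were lower in heart, with differences of -4.46 and -4.06 in KO mice and of -3.93 and -4.34 in WT mice. That is the opposite of Col4a1 and Col4a2. Of the laminins, Lama2 and Lama4, the chains of muscle and vessel basement membranes, were higher in heart by 2.71 and 3.38 in KO mice and by 2.82 and 3.62 in WT mice. Lama1 was not well above background on any heart, and averaged -2.86 in KO kidneys and -1.91 in WT kidneys. Set against the lowest signal well above background on each heart, kidney was 31.96-fold higher in KO mice and 60.3-fold higher in WT mice. Some genes read above that level in heart without being well above background, so these folds are not strict lower bounds. Npnt, nephronectin, was lower in heart, with -4.71 in KO and -4.28 in WT mice. In all, 8 laminin and other basement membrane genes were called higher and 3 lower of 15 in KO mice, and 8 higher and 5 lower of 16 in WT mice. All genes tested were also called in both directions, 29.4% higher and 24.2% lower in KO mice and 34.1% and 30.3% in WT mice.

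Other remodelling genes gave some of the widest differences. Plau, the protease urokinase, was lower in heart, with -6.15 in KO and -5.48 in WT mice. Spp1, osteopontin, was saturated on every kidney array and kidney was at least 88.7-fold higher in KO mice and at least 141-fold higher in WT mice. Comp, cartilage oligomeric matrix protein, had the largest difference of heart over kidney in this further list in WT mice, at 7.62 ± 0.18 (SE). Mmp15 was higher in heart by 3.87 in KO and by 4.70 in WT mice. Of other proteases and inhibitors 16 were called higher and 3 lower of 26 in KO mice, and 16 higher and 2 lower in WT mice. The TGF beta signalling list was divided, with 9 higher and 3 lower of 21 in KO mice and 9 higher and 6 lower in WT mice. So were all genes tested, with 29.4% higher and 24.2% lower in KO mice and 34.1% and 30.3% in WT mice. The coreceptor Eng was higher in heart by 1.94 in KO and by 2.60 in WT mice, while Itgb8, Itgb6 and Itgav, integrin subunits that activate latent TGF beta, were lower, with -5.03, -3.56 and -2.20 in KO mice and -5.06, -3.13 and -2.18 in WT mice.

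Between genotypes only 1 gene of the further list was called. In heart 136 were tested, 38 higher and 98 lower with a median of -0.24, and in kidney 132 were tested, 53 higher and 79 lower with a median of -0.09 and 0 called. Col11a2, a chain of the type XI collagen of cartilage fibrils, read -1.95, -2.20 and -2.70 in KO hearts, against -4.07, -4.23 and -3.74 in WT hearts. The difference was 1.73 ± 0.24 (SE, adjusted p = 0.044), 3.32-fold higher, and the groups were apart by over 1 unit. Of the alternatives, only median scaling, leaving out KO heart c and the deposited table under scanner labels kept this call. With letter as a block the adjusted p was 0.112. Col11a2 lies on chromosome 17, as does Slc29a1, and was well above background on 1 of 3 KO kidneys and on no WT kidney. Tgfbi, a TGF beta-induced matrix protein named here after its values were seen, read -6.15, 1.45 and 1.31 in KO kidneys, against 2.14, 2.14 and 2.12 in WT kidneys. KO kidney a thus stood far below all other kidneys, and the difference of -3.26 ± 1.94 (SE) was not called (adjusted p = 0.528).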

How the data were processed

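Arrays with a single dye (Cy3) were read with Agilent Feature Extraction, version 9.5.3.1 per the file headers and 9.1 per the submitters' processing notes. The processed signal of each spot is a linear intensity with the background already subtracted, per the file headers. The authors' deposited table is in log2 units, and each probe there has a median of 0 within a tissue (within 0.01 for 100% of probes). It served as an alternative, with each column given the genotype of the scanner file that it followed. It is thus the same measurements under the scanner labels and not a separate check of them. Probe positions are on build mm7, per the file headers.

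Signals were put on the log2 scale and shifted to a 75th percentile of 0 on each array. Spots marked as outliers were left out, and replicate spots were averaged. Of several probes of a gene, the one with the highest mean was used. Names came from RefSeq by accession for 23075 probes, symbol for 6587 and synonym for 3072, and 8440 kept the file's name. A gene was tested when 1 or more groups had all 3 of their arrays well above background. Groups were compared with limma 3.58.1 in R 4.3.3 (lmFit, eBayes), and p-values were adjusted over all genes with Benjamini-Hochberg at 0.05. The number of arrays limits the precision. An exact permutation test of 3 against 3 arrays was not used, since it cannot reach 0.05. The fit was tested on simulated data with genes changed by known amounts. A change of 1 log2 unit was called for 33% of such genes in heart and 20% in kidney. A change of 2 units was called for 72% and 74%. A gene without a call can thus still differ.

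The members and lists were chosen with earlier results of these data known. Every member is named, and from each further list up to 3 called genes per direction by adjusted p. Letters were checked as pairs: same-letter hearts of the 2 genotypes deviated together (r = 0.39, 0.19 and 0.26 over genes), while kidneys did not (0.10, -0.01 and -0.14). With letter as a block the heart fit called no member either. Alternatives were other scalings, normexp, filters, probe means, letter, sex and slide terms, single arrays left out, and the deposited table.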

Additional observations from a re-analysis of the deposited data

How the results depend on the processing

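Under the alternatives no called member changed sign between tissues, and WT heart against WT kidney kept all 32 calls. Leaving out arrays gave 32 to 32 there with a member median of 2.56 to 2.93 (2.53 with the mean of probes). Between genotypes no member was called in the main fits, so no call could change sign. Of the member values, 34 of 512 in heart and 32 of 575 in kidney changed sign. For the heart difference minus the kidney difference 50 of 703 did. In KO heart against KO kidney, 17 of 543 member values lost their call and 2 gained it. Col4a1 lost its call with median scaling, with normexp, with slide as a random block, without KO heart a or c, without KO kidney b or c, and among arrays with Xist signal. Normexp also lost Col5a2, Col6a2, Eln, Lox, Mmp9 and Tgfb2, and the arrays with Xist signal lost Col4a2, Lox and Ctgf. Tnc was called among those arrays and without KO heart c. Those arrays are KO hearts a and b against KO kidney a alone, so the kidney is assumed to vary like the hearts. The member median there was 2.69 with median scaling, 2.11 with normexp (3160 genes called against 9720), 2.32 with the mean of probes and 2.69 among arrays with Xist signal. Loxl3 reversed with normexp, to -0.37 (adjusted p = 0.783).

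In KO heart against WT heart, 5 of 512 member values gained a call, all without KO heart c: Tnc, Col1a2, Tgfb2, Tgfb3 and Postn. Genes called were 117, and 17 with normexp, 62 with no filter, 22 with a filter on every array, 75 with sex as a covariate and 277 in arrays without Xist signal. Under both of the last the genotype difference rests on KO heart c alone, assumed to vary like the other hearts, and the member median was -0.044. Leaving out single arrays gave 26 to 2249 genes, the highest without KO heart c, and 0 to 5 members. Median scaling moved the median of all genes to -0.23 and of the members to -0.44.

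In KO kidney against WT kidney, 20 genes were called, and 103 with median scaling, 4 with no filter, 50 with the mean of probes, 87 with sex as a covariate, 80 in arrays without Xist signal and 11 in the deposited table. Normexp called 0 in limma (597 at an unadjusted p under 0.05). Slide as a block called 273 and slide 2 alone 219, with 1 member each, Col1a1. Both fits take the genotype difference from the same slide 2 kidneys. Leaving out single arrays gave 1 to 93 genes and 0 members.

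For the heart difference minus the kidney difference, 118 genes were called, and 0 with normexp in limma (1075 at an unadjusted p under 0.05), 49 with a filter on every array, 225 in arrays without Xist signal (again with 1 KO heart, member median 0.43) and 19 with slide as a random block. Leaving out single arrays gave 40 to 1492 genes and 0 to 1 members. With letter as a replicate block, 2 genes were called in kidney and 57 in this comparison, and no call of a member changed in any comparison. In heart, slide could not be fitted, because genotype and slide coincide.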
